A study of Mus musculus with 7 samples.

Results

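The T-box genes examined here were 10 of the 17 mouse T-box genes, in a group of 4 that are expressed in limb bud mesenchyme (Tbx2, Tbx3, Tbx15 and Tbx18) and a group of 6 known from other tissues (Tbx1, Tbx6, Tbx20, Tbx21, Tbr1 and Eomes). They were put in these groups by where they are known to act, which is background knowledge, since the peak list holds no expression values, and they were chosen with earlier results of these data known. For each gene, every HDAC1 peak that overlapped its annotated body with 20 kb added on each side was taken, which gave 57 of the 15347 peaks of the list. Both limb identity genes of the family, Tbx4 and Tbx5, are described after these 10 together with the other T-box genes.

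The ChIP-seq experiment, which sequences the DNA that an antibody against HDAC1 brings down from fixed chromatin, was done on wild-type limb buds of Swiss Webster mice at E11.5 (40 to 44 somites). There were 4 HDAC1 ChIP samples and 3 input samples, each of forelimb and hindlimb buds pooled from 3 litters, with no treatment and no mutant group. The peaks of the 4 ChIP samples stand in 1 pooled list of mm10 coordinates, in the order of the authors' ranking. The list has no value for a single sample and no read number for a peak, so no value below has a replicate error, the depth behind a peak is unknown, and neither the cell types in the limb buds nor the spread between samples could be checked.

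T-box proteins are transcription factors that bind DNA through a shared domain, the T-box, and many of them set the fate of a tissue in the embryo. Some members, among them Tbx2 and Tbx3, act mainly as repressors, and others, among them Tbx5 and Tbx6, mainly as activators. HDAC1 is a histone deacetylase, the enzyme class that removes acetyl groups from histone tails. It does not bind DNA by itself but is brought to chromatin by co-repressor complexes, and it is found both at silent genes and at promoters of active genes.

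All 10 genes had at least 1 HDAC1 peak in their window, so none was without a peak by this rule. Over 21938 protein-coding genes, 59.3% had a peak in a window of the same kind, so the presence of a peak says little about these genes. The groups differed in how much was bound. The windows of the 4 limb-expressed genes held 38 peaks covering 5100 to 14550 bp per gene (median 9300 bp). Those of the 6 genes of other tissues held 19 peaks covering 633 to 3450 bp per gene (median 925 bp). With the peaks as listed, the lowest limb-expressed gene, Tbx18, thus had more bound bases than the highest of the other group, Tbx1. The ranges did not overlap. Once peaks with gaps of 1000 bp or less were joined and the gaps counted, Tbx1 was level with Tbx18 in bases. As a share of the window, Tbx1 was then above Tbx18 and, by a small margin, above Tbx15. The separation thus depends on how the bound stretches were divided into peaks. The median over all protein-coding genes was 404.5 bp, and 1.08% of them reached the 5100 bp of Tbx18. As a share of the window, the covered part was 7.45 to 19.1% at the limb-expressed genes and 0.676 to 6.94% at the others, against a median of 0.476% over all protein-coding genes. Genes are not replicates of a condition, so no test was made between the groups, here or below.

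**Figure D1:**
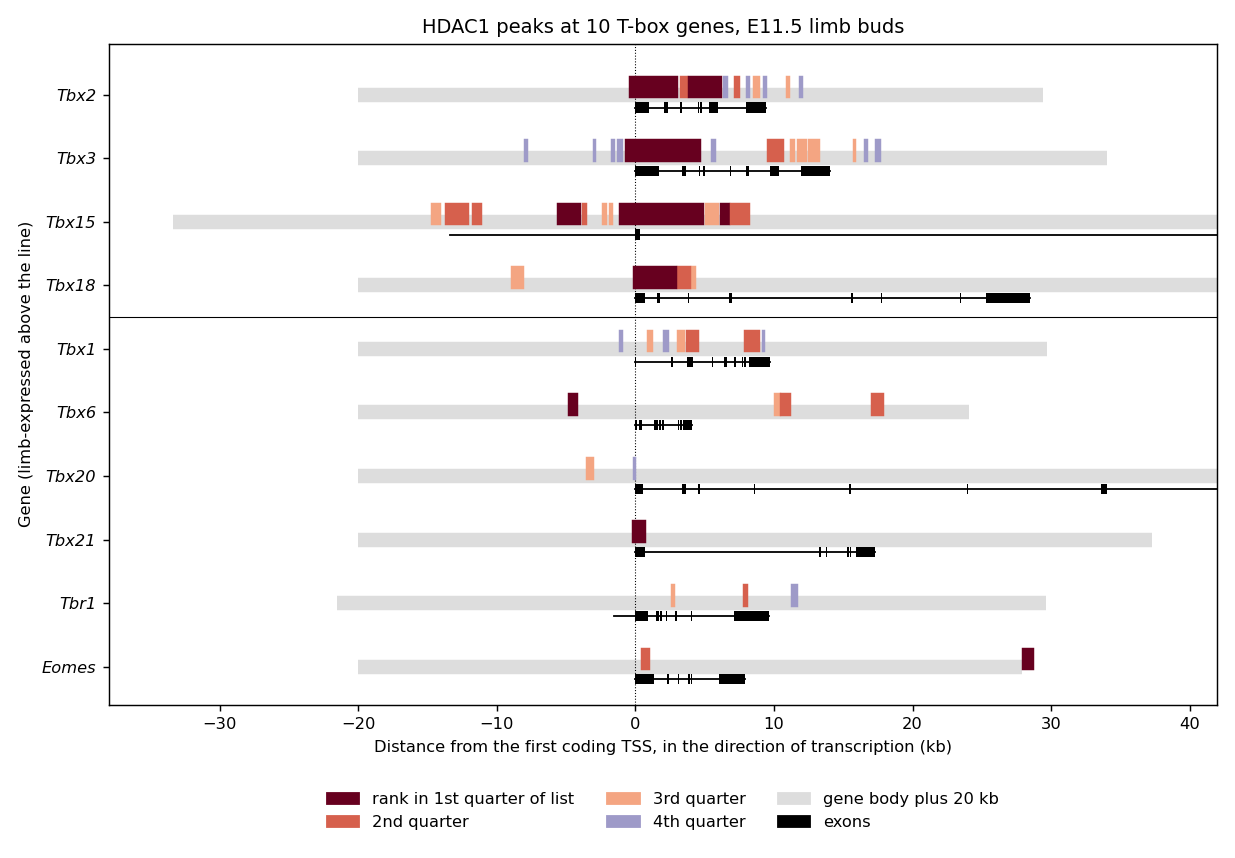
HDAC1 peaks at the 10 T-box genes, drawn to scale in kb from the first protein-coding transcription start site (TSS) in the direction of transcription, with peaks as blocks coloured by their place in 4 equal parts of the ranked list, exons of the basic annotation in black and the searched window in grey. The long blocks in the colour of the best ranks sit over the starts of Tbx2, Tbx3, Tbx15 and Tbx18, the peaks of Tbx6 lie outside its body, and the windows of Tbx15 and Tbx20 run on to the right beyond the frame without a further peak.

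Among the limb-expressed genes, Tbx2 encodes a repressor of cell cycle inhibitor genes that is expressed at the limb margins and in the heart. It lies at chr11:85832551-85841948 on the plus strand. Its window held 10 peaks that together covered 8300 bp, and 77.7% of the gene body was inside a peak. The best ranked was a peak of 2400 bp at rank 569, which began 3799 bp downstream of the TSS and held 879 bp of coding sequence. The longest, 3450 bp at rank 1456, lay over the TSS itself. The next in rank was 500 bp long, stood 3249 bp downstream at rank 6304, and filled most of the space between the 2 long peaks. The peak farthest from the TSS lay 11799 bp downstream, beyond the end of the gene, with 250 bp at rank 13411. After joining all peaks with gaps of 1000 bp or less, the 10 peaks became 2 regions, and the wider was 9900 bp, slightly longer than the gene of 9398 bp.

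Tbx3 encodes a closely related repressor, whose loss of function in humans causes ulnar-mammary syndrome, with defects of the posterior limb. It lies at chr5:119670669-119684724 on the plus strand. Its 13 peaks were the highest number of the 10 genes, a number reached by 0.160% of protein-coding genes, and they covered 10300 bp. The best ranked was also the longest, 5450 bp at rank 1340 over the TSS. It was followed by a peak of 1100 bp at rank 4713, which started 9531 bp downstream and held 671 bp of coding sequence, and by one of 800 bp at rank 8262, 12431 bp downstream, that lay wholly in non-coding exon sequence at the end of the gene. The farthest peak lay 17281 bp downstream, 400 bp long at rank 13174. Of the 13 peaks, 5 lay outside both the gene body and its promoter and inside the non-coding transcripts Tbx3os1 and Tbx3os2 that flank the gene. After the same joining as at Tbx2, the 13 peaks became 5 regions, against 3 at Tbx15 and 3 at Tbx1, so the peak number depends on how the bound stretch was divided.

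Tbx15 is required for growth of the skeleton, including the limb bones, and for the boundary of dorsal and ventral coat colour. It lies at chr3:99240381-99354259 on the plus strand. It had the most bound bases of the 10 genes, 14550 bp in 11 peaks, a total reached by 0.132% of protein-coding genes. Its window of 153879 bp is also the longest, against a median of 57425 bp over all protein-coding genes, yet every one of the peaks lay within 14111 bp of the protein-coding TSS. The peak over the TSS was 6100 bp long at rank 84, the best rank of the 57 peaks, and only 0.163% of all peaks were at least as long. The next in rank was a peak of 1700 bp at rank 1405, 3961 bp upstream of the protein-coding TSS and inside an intron of longer transcripts, and after it one of 600 bp at rank 2175, 6140 bp downstream in an intron. The farthest lay 14111 bp upstream, 650 bp long at rank 9846, and inside the neighbouring gene Wars2.

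Tbx18 is known for the polarity of the somites, the mesenchyme of the ureter and the pacemaker region of the heart, and is also expressed in proximal limb mesenchyme. It lies at chr9:87702800-87731260 on the minus strand. It had 4 peaks covering 5100 bp, the fewest of the limb-expressed group. The peak over the TSS was 3050 bp at rank 113. Downstream of it stood peaks of 900 bp, at a distance of 3011 bp and rank 6456, and of 300 bp, at 4011 bp and rank 7794, and the remaining peak of 850 bp lay 8090 bp upstream at rank 10412, inside a predicted non-coding gene. Each of the first 3 stood 100 bp or less from the next, and the last stood apart from them.

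The sequences of the best ranked peak of each limb-expressed gene that touches no annotated exon are shown as examples of HDAC1-bound DNA away from the TSS. They were read from GRCm38.p6 (the mm10 assembly), at most 300 bases around the midpoint of the peak, on the strand of the gene, with the CpG dinucleotides in capitals. The interval and strand of each were chr11:85839700-85839999 (+) for Tbx2, chr5:119681825-119682124 (+) for Tbx3, chr3:99248800-99249099 (+) for Tbx15 and chr9:87726950-87727249 (-) for Tbx18. The bases shown held 4, 2, 12 and 0 CpG dinucleotides, in the same order. These examples need not be typical of their genes. Other peaks away from the TSS reached 7.20 CpG dinucleotides per 100 bp at Tbx2, 6.50 at Tbx3, 4.36 at Tbx15 and 5.53 at Tbx18.
Tbx2 intron peak: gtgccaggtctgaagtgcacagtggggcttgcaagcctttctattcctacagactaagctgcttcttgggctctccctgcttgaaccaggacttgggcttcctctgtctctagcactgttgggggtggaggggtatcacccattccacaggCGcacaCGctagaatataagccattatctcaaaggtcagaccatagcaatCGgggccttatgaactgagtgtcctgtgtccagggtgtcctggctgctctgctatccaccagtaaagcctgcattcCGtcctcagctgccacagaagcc
Tbx3 intron peak: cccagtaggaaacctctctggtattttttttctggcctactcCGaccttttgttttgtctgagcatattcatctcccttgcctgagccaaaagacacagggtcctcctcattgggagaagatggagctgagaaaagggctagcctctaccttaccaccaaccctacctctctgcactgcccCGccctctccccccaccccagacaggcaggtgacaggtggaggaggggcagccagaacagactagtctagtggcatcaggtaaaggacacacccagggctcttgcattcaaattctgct
Tbx15 intron peak: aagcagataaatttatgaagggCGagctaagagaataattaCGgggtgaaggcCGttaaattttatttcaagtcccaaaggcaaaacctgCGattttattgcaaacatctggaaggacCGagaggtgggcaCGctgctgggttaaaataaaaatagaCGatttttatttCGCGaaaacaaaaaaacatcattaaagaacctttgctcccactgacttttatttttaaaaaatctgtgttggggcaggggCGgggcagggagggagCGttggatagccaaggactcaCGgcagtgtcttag
Tbx18 intron peak: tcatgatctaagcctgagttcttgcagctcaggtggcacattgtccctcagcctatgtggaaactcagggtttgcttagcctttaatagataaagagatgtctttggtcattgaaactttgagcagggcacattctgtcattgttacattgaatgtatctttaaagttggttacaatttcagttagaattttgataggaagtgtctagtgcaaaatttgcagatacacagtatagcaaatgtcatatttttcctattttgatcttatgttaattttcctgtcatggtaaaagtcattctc

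Among the genes of other tissues, Tbx1 stood nearest to the limb-expressed genes. It is a regulator of the pharyngeal arches and the cardiac outflow tract, and its loss accounts for much of the DiGeorge syndrome. It lies at chr16:18580979-18590671 on the minus strand. Its 7 peaks covered 3450 bp, a total reached by 3.36% of protein-coding genes. They also covered 33.5% of its body, which is more than at the longer genes Tbx18 (14.4%) and Tbx15 (11.9%) and less than at Tbx3 (55.4%) and Tbx2, so that for the body alone the groups overlapped. None of them lay over the first protein-coding TSS. Around that TSS stood a peak of 200 bp, 979 bp upstream at rank 12190, and one of 350 bp, 822 bp downstream at rank 9876. Further into the gene, 3 peaks lay at a second protein-coding TSS: 300 bp at rank 12935, 500 bp at rank 8542 and 900 bp at rank 4381, which were 2022, 3022 and 3622 bp downstream of the first. The last 2 lay in exons at the end of the gene, with 1050 bp at rank 6611 and 150 bp at rank 15049, at 7872 and 9122 bp. After the same joining, the widest region at Tbx1 measured 3700 bp.

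Tbx6 acts in the presomitic mesoderm, where it keeps cells from a neural fate. It lies at chr7:126781483-126785560 on the plus strand. Its window held 4 peaks with 2650 bp, but none touched its body or its own promoter, and all 4 stood at promoters of other protein-coding genes. A peak of 650 bp at rank 2980 lay 4184 bp upstream of Tbx6 at the promoter of Ypel3. Peaks of 400 bp at rank 10770 and of 700 bp at rank 4252 lay 10017 and 10467 bp downstream at the promoter of Ppp4c, the catalytic subunit of protein phosphatase 4. The last, 900 bp at rank 3933, lay 16967 bp downstream at the promoters of Fam57b and of Aldoa, a glycolytic enzyme. Over all protein-coding genes, 10.1% had peaks in the window that were all at promoters of other protein-coding genes.

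Tbx20, a regulator of the heart, lies at chr9:24718138-24774303 on the minus strand, and no base of its body was inside a peak. A peak of 150 bp ended 47 bp upstream of the TSS at rank 14507, and another of 500 bp lay 3047 bp upstream at rank 10680 inside the predicted gene Gm29824. Tbx21, also known as T-bet, directs helper T cells towards interferon production and lies at chr11:97098071-97115331 on the minus strand. It had a single peak, 900 bp over the TSS, at rank 943, the best rank among the 6 genes. Tbr1 specifies deep-layer neurons of the cerebral cortex and lies at chr2:61802930-61814114 on the plus strand. It had no peak at its first protein-coding TSS, and its 3 peaks were 200 bp at rank 10835, 250 bp at rank 6282 and 500 bp at rank 13955. They stood 2597, 7797 and 11197 bp downstream, and the first of them was 788 bp downstream of a second protein-coding TSS. Eomes, known from the trophoblast, the early mesendoderm and the progenitors of cortical neurons, lies at chr9:118478212-118486132 on the plus strand. It had a peak of 600 bp at rank 4598 that began 388 bp downstream of the TSS in its first exon. Its other peak was 800 bp long at rank 3395 and stood at the promoter of Golga4, a golgin of the Golgi apparatus. That peak lay 19968 bp from the gene body, so that only 33 bp of it were inside the window. The next peak beyond the window was at 20818 bp.

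For comparison, the best ranked exon-free peaks of Tbx1 and Tbx20 are shown in the same way. They lie at chr16:18587250-18587549 (-) and chr9:24777450-24777749 (-), and the bases shown held 6 and 14 CpG dinucleotides. The Tbx1 peak lies in an intron but 181 bp upstream of the second protein-coding TSS of the gene. It is thus at a promoter, unlike the peaks shown for the limb-expressed genes.
Tbx1 intron peak: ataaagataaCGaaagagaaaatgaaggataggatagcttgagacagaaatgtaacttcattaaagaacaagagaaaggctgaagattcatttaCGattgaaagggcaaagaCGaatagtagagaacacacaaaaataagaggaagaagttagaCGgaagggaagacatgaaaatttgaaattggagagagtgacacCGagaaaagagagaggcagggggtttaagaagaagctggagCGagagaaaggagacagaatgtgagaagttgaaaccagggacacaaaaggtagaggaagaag
Tbx20 upstream peak: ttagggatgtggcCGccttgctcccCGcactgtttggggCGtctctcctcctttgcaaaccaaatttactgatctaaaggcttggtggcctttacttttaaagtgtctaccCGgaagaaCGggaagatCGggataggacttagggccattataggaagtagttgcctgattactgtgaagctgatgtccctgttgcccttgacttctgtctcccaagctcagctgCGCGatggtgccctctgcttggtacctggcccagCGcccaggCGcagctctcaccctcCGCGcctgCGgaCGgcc

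Both groups had HDAC1 at most of their own promoters. A peak touched the promoter, taken as 2 kb before to 1 kb after a protein-coding TSS, at 4 of 4 limb-expressed genes and at 5 of 6 others, the exception being Tbx6, and the share over all protein-coding genes was 43.9%. The length of the peak at the promoter differed. Each of the 4 limb-expressed genes had a peak of at least 3000 bp, a mark set after the values were seen, and each of these 4 peaks lay over the TSS. None of the 6 others had one. Their longest peak at an own promoter was 900 bp, at Tbx1 and at Tbx21, and their longest of all was the 1050 bp peak in exons at the end of Tbx1. The mark did not separate the groups once peaks with gaps of 1000 bp or less were joined, since 1 region of the other group, the 3700 bp region at Tbx1, then passed it. Over all protein-coding genes, 1.03% had such a peak in the window, and 150 of the 15347 peaks reached that length. Of the 3 kb around the first protein-coding TSS, peaks covered 1452 bp at Tbx2, 2370 bp at Tbx3, 2461 bp at Tbx15 and 1140 bp at Tbx18. The same stretch held 900 bp at Tbx21, 600 bp at Eomes, 379 bp at Tbx1 and 150 bp at Tbx20, while Tbx6 and Tbr1 had no covered base there.

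Away from promoters the groups differed as well. Peaks at no protein-coding promoter were found in the windows of 4 of 4 limb-expressed genes and of 3 of 6 others (Tbx1, Tbx20 and Tbr1), against 14.4% of all protein-coding genes. The limb-expressed genes had 31 such peaks and the others 5. In the other direction, 7 of the 38 peaks of the limb-expressed genes (18.4%) stood at a protein-coding promoter, against 14 of 19 (73.7%) in the other group and 70.1% of all peaks. This share and the counts before it moved with how the bound stretches were divided into peaks. After that joining, the 38 peaks became 12 regions, 4 of them (33.3%) at a promoter. The 19 became 14, 10 of them (71.4%) at one, so that the other group, with 6 genes against 4, then had the larger total. Per gene there were 2 to 5 regions in the limb-expressed group and 1 to 3 in the other. This joining was chosen for the promoter share after the data were seen. By position, 60.4% of the covered bases in the windows of the limb-expressed genes were intronic and 14.4% lay outside the gene. In the other group 19.7% were intronic and 46.0% lay outside the gene, most of them at promoters of the neighbours of Tbx6. These shares pool the genes of a group. Most of the intronic bases of the limb-expressed genes lay at Tbx15, while at Tbx3 most covered bases were exonic or outside the gene. The same shares over all peaks were not counted. None of the peaks of the limb-expressed genes lay at the promoter of another protein-coding gene. In the other group 5 of 19 did, 4 of them at Tbx6 and 1 at Eomes, of which only 33 bp lay in the window. The share over the windows of all protein-coding genes was not counted.

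The larger extent did not come with better ranks throughout. Of the 38 peaks at the limb-expressed genes, 7 ranked among the first 3836 of the list, and 15 among the first 7674. Of the 19 peaks in the other group, the numbers were 3 and 9. The median ranks were 8489 and 8542, both past the middle of the list at rank 7674. The median lengths were 400 and 500 bp, against 450 bp over all peaks. Each limb-expressed gene had 1 long peak over its TSS, and the other peaks of Tbx3, Tbx15 and Tbx18 all ranked lower than it. The best rank of each gene was 84 at Tbx15, 113 at Tbx18, 569 at Tbx2 and 1340 at Tbx3. In the other group it was 943 at Tbx21, 2980 at Tbx6, 3395 at Eomes, 4381 at Tbx1, 6282 at Tbr1 and 10680 at Tbx20, so that these ranks did overlap between the groups.

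**Figure D2:**
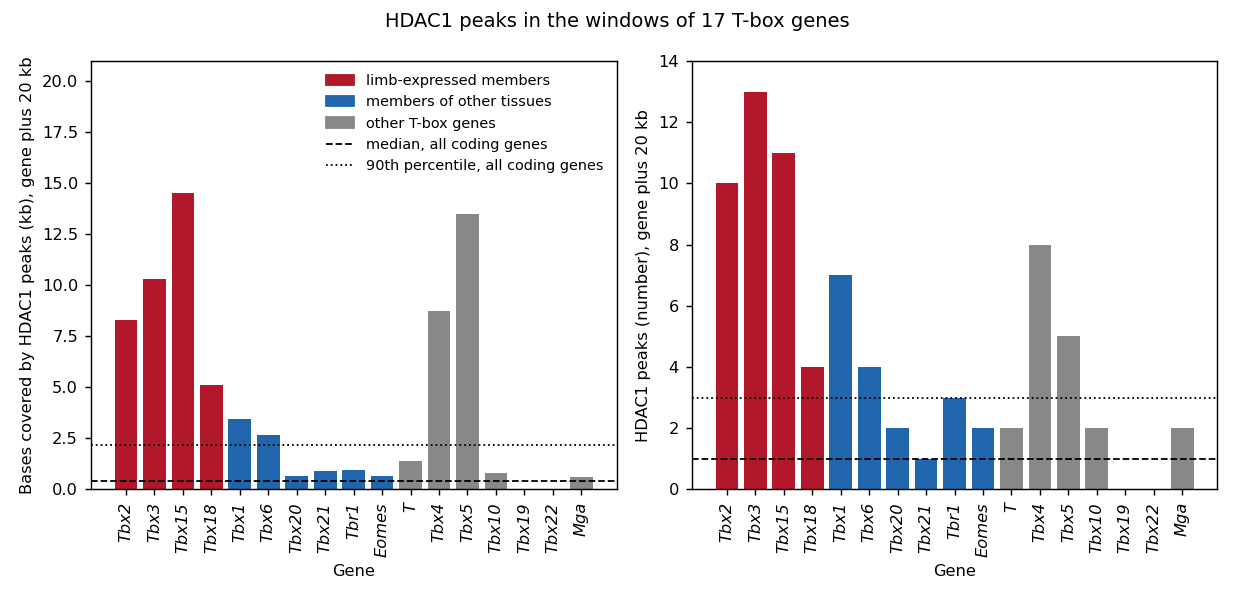
Bases covered by HDAC1 peaks (left, kb) and number of HDAC1 peaks (right) in the gene body plus 20 kb for 17 T-box genes, 1 bar per gene, with the median (dashed) and the 90th percentile (dotted) over 21938 protein-coding genes. Tbx2, Tbx3, Tbx15 and Tbx18 with Tbx4 and Tbx5 reach 5.1 to 14.55 kb and every other T-box gene stays at or below 3.45 kb, while for peak number Tbx1 (7) lies above Tbx18 (4) and Tbx5 (5).

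The remaining T-box genes were counted in the same way. Tbx4 and Tbx5, which are needed for outgrowth of the hindlimb and the forelimb, had 8 peaks with 8750 bp and 5 peaks with 13500 bp, and both had a peak of over 3000 bp, 5250 bp at rank 336 and 6150 bp at rank 173. Their covered bases lay in the range of the limb-expressed genes. Brachyury (T), the mesoderm and notochord gene for which the family is named, had 2 peaks with 1400 bp at its promoter. Mga, which encodes a partner of MAX that carries a T-box, had 2 peaks with 600 bp, one at its own promoter and one at that of Mapkbp1. Tbx10 had 2 peaks with 800 bp, and both stood at promoters of other protein-coding genes, Nudt8 and Ndufv1. Tbx19, which drives hormone production in pituitary cells, and Tbx22, a gene of the palate, had no peak in the window. The nearest peaks to them lay 75877 and 264815 bp away.

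The DNA under the peaks differed in base composition between the groups. The peaks of the limb-expressed genes had a median GC content of 52.2% and a median of 3.12 CpG dinucleotides per 100 bp. The peaks of the other group had 67.9% and 9.33 per 100 bp, and the median over all 15347 peaks was 62.9% and 7.40 per 100 bp. Counted over all peak bases of a gene, the density was 2.99 per 100 bp at Tbx15, 4.15 at Tbx3, 5.11 at Tbx2 and 5.12 at Tbx18. It was 6.62 at Tbx20, 7.55 at Tbx6, 8.93 at Tbx1, 9.16 at Tbr1, 9.56 at Tbx21 and 10.7 at Eomes, with no overlap between the groups. Tbx4 (3.17) lay in the range of the limb-expressed genes and Tbx5 (2.55) below it. By the median over the peaks of a gene the groups did overlap, with 4.40 at Tbx1 against 5.60 at Tbx2. Peak length moves with CpG density: the 150 peaks of at least 3000 bp in the whole list had a median of 5.95 per 100 bp. Among peaks under 3000 bp the medians were 2.61 in the limb-expressed group, 9.33 in the other and 7.43 in the list. Limited to peaks at the genes' own promoters, they were 4.35 for 7 peaks and 9.33 for 9 peaks.

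**Figure D3:**
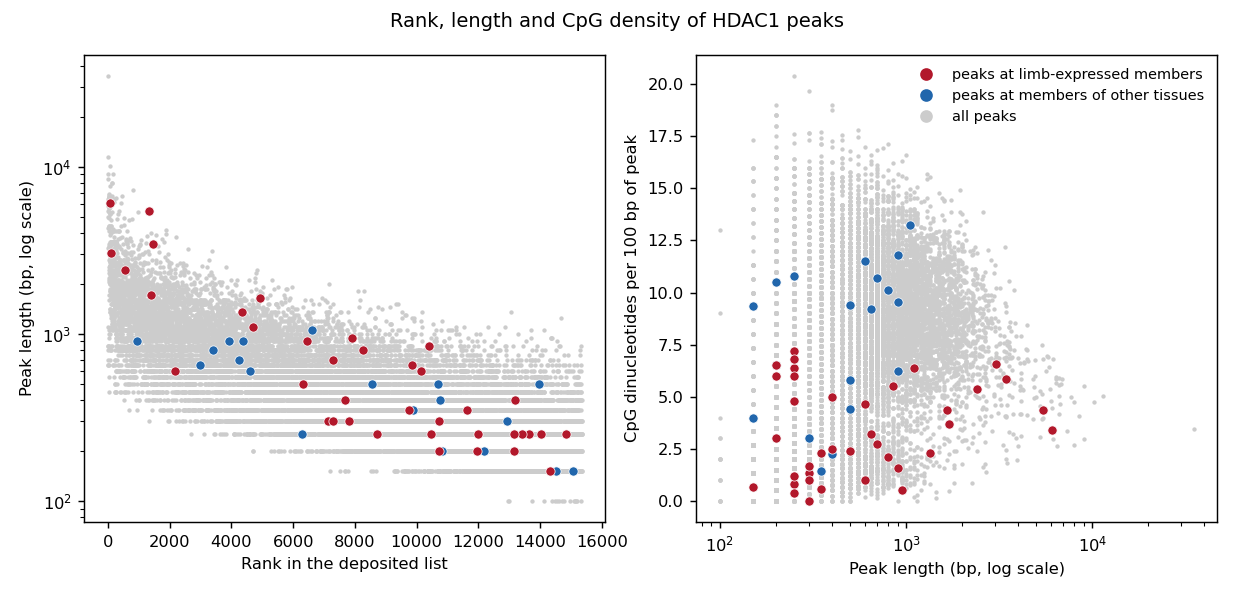
Length (bp, log scale) against rank in the list (left) and CpG dinucleotides per 100 bp against length (right) for all 15347 HDAC1 peaks (grey), with the 38 peaks of the limb-expressed genes in red and the 19 of the other group in blue. The red and blue points are mixed along the ranks, with the peaks over 1050 bp all red, and the red points lie between 0 and 7.20 CpG per 100 bp, below most of the blue ones.

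The promoters themselves were not ordered in that way. In the 3 kb around the first protein-coding TSS there were 203 CpG dinucleotides at Tbx2, 178 at Tbx3, 163 at Tbx18 and 114 at Tbx15. The other group had 181 at Eomes, 139 at Tbx21, 119 at Tbx1, 92 at Tbx20, 87 at Tbr1 and 55 at Tbx6, so that the groups overlapped, and the median over all protein-coding genes was 73. Over all protein-coding genes the CpG number of the promoter and the covered bases in the window had a Spearman correlation of 0.666. Over the 10 genes it was 0.176, with Tbx15 (114 CpG, 14550 bp) and Eomes (181 CpG, 633 bp) the widest apart. Both are descriptions across genes of 1 list, and the part of base composition in the difference between the groups was not tested.

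Promoter sequences of 7 of the 10 genes were in the RefSeq promoter table (GRCm38), and Tbx2, Tbx3 and Tbx15 were not. The 250 bases before the RefSeq start are shown for 4 genes that differ in how far HDAC1 reached over them, with CpG dinucleotides in capitals and on the strand of the gene. The intervals are chr9:87731261-87731510 (-) for Tbx18, chr11:97115332-97115581 (-) for Tbx21, chr7:126781233-126781482 (+) for Tbx6 and chr9:118477939-118478188 (+) for Eomes. A peak covered 139 of these bases at Tbx18 and 218 at Tbx21, and none at Tbx6 or Eomes. They held 15 CpG dinucleotides at Tbx18, 16 at Tbx21, 6 at Tbx6 and 8 at Eomes.
Tbx18 promoter: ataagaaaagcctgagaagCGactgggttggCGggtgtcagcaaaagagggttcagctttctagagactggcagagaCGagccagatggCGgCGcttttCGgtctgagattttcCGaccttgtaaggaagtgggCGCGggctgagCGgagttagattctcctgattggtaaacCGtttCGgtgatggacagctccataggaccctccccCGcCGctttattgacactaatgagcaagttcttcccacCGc
Tbx21 promoter: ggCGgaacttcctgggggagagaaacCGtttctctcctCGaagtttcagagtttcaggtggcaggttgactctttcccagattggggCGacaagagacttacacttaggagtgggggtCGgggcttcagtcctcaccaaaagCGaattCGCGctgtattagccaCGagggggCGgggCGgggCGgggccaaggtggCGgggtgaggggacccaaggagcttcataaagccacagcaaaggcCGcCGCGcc
Tbx6 promoter: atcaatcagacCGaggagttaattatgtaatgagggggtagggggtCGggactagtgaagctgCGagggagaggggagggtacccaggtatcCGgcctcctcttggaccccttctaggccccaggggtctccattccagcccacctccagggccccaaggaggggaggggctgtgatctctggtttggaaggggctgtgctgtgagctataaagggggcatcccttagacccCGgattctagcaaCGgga
Eomes promoter: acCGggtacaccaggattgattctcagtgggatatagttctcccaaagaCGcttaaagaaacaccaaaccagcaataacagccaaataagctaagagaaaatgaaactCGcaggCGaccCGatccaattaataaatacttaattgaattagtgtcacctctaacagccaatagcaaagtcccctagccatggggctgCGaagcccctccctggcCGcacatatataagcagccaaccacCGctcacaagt

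Binding motifs were searched on both strands as exact letters, AGGTGTGA for the T-box site and GACCACCCA for the core of the GLI motif, which do not overlap each other in sequence. In the 300 bp around the midpoint, none of the 57 peaks held either, against 0.775% of all peaks for the T-box site and 0.326% for the GLI core. Over the whole length of the peaks, no peak of the 10 genes held the T-box site, which 1.62% of all peaks did, and 1 held the GLI core, the peak at the Golga4 promoter in the window of Eomes, against 0.645% of all peaks. In the 300 bases of the RefSeq promoters (250 before and 50 after the start), none of the 8 promoters of the 7 genes held either motif, against 1.28% and 0.253% of 32851 promoters. With shares this low in the list as a whole, 57 peaks are too few to read anything from their absence.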

How the data were processed

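HDAC1 ChIP-seq was performed on 4 samples of pooled E11.5 limb buds, with 3 inputs. Per the submitters' processing notes, Bowtie2 2.2.5 and mm10 were used, and CisGenome was the authors' peak caller in the paper's methods (false discovery rate under 0.05). The deposited file is 1 ranked list of peak coordinates for all 4 ChIP samples, with no counts, heights or error rates, so that no sample could be left out, no depth is known per peak and no test between samples was possible. The files hold no depth for a library, and the paper's methods give only a lower bound shared by all samples.

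Coordinates were read as 1-based with both ends included. Genes and exons came from the GENCODE M21 annotation (GRCm38), with gene bodies and TSSs from its basic set and exon and coding overlap from its comprehensive set. A peak belonged to a gene when it shared at least 1 bp with the gene body plus 20 kb, and to a promoter when it touched the 2 kb before or the 1 kb after a protein-coding TSS. Distances were measured from the nearer edge of the peak to the first protein-coding TSS. Covered bases were counted inside the window. As the report says of the genes, all lists were chosen with earlier results of these data known. Named were all 10 genes with every peak (for genes with over 8 peaks, the 3 best ranked, the longest and the farthest from the TSS), the other T-box genes, and protein-coding genes with a promoter under such a peak. The overlap procedure was tested on simulated peaks and matched a base-by-base count in 2000 of 2000 windows. Other windows, shorter lists, joined peaks and other TSS rules were tried. Python 3.11.15, pandas 2.3.3, pysam 0.24.0 and matplotlib 3.10.9 were used.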

Additional observations from a re-analysis of the deposited data

How the results depend on the processing

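Of 67 values recomputed under other settings, 43 stayed within 1.5 times the reported value (for shares of all genes or peaks, within the 95% Wilson interval), and 24 did not. Some of the 43 still change a count. With the body alone, 4 of the 6 genes of other tissues had a peak. Without peaks at promoters of other protein-coding genes, 5 of the 6 had one. A peak at the own TSS was found at 6 of these 6 genes with 5 kb on both sides of the TSS. With only the 5' end of the gene as TSS, it was found at 4. The 24 follow. Windows: with the gene body alone, with 5 kb and with 50 kb, the median covered share of the limb-expressed genes was 34.9, 26.9 and 7.92%, and the share of protein-coding genes with a peak was 45.1, 50.5 and 69.2%. For the other group the body alone gave 10 peaks and a median of 3.99%, and 5 kb a median of 3.92%. With all annotated genes as background, 38.3% had a peak. Shorter lists: in the first 7674 peaks the limb-expressed genes kept 15 peaks and the others 9, 3 of 6 others had a peak at their own TSS, and 43.8% of protein-coding genes had a peak in the window. In the first 3836 peaks the numbers were 7 and 3, with medians of 7.77% and 0.0344%, 3 of 6 others and 26.9% of protein-coding genes had a peak, and all 4 limb-expressed genes did. Joining peaks no more than 1000 bp apart left 12 at the limb-expressed genes, of which 33.3% stood at a promoter (added after seeing the data). Over whole peaks, 1.62% held the T-box site and 0.645% the GLI core. The median covered share stayed higher at the limb-expressed genes in each window and list tried. For the body alone single genes overlapped, with 33.5% at Tbx1 against 11.9% at Tbx15 and 14.4% at Tbx18. With 5 kb, and with 20 kb after joining peaks, the share at Tbx1 was also above those at Tbx15 and Tbx18. After joining, the margin over Tbx15 was small. No paired analysis was possible because the peak list pools the samples and has no column for a replicate, and for the same reason no replicate could be left out.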

Other observations

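Several T-box genes stand in pairs on the same chromosome, and the stretches between them also held HDAC1 peaks. Between the end of Tbx3 and the start of Tbx5, 147943 bp on chromosome 5, there were 10 peaks covering 7650 bp. Of these, 3 lay in the window of Tbx3, and a peak of 500 bp at rank 12524 lay in that of Tbx5. The best ranked of the 10 was 3750 bp long at rank 714. Between Tbx2 and Tbx4, 44473 bp on chromosome 11, there were 3 peaks covering 1450 bp, and 2 of them lay in the window of Tbx2. The best ranked of the 3, 950 bp long at rank 3263, lay in the window of Tbx4, so all were already counted above. These values were taken after the others had been seen, and no test was made on them.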
